A study of Homo sapiens with 2 samples.

Results

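The 10 genes described here encode the enzymes that write, maintain and erase 5-methylcytosine in DNA. They are DNMT1, UHRF1, UHRF2 and HELLS (maintenance), DNMT3A and DNMT3B (de novo methylation), and TET1, TET2, TET3 and TDG (demethylation). They were chosen by gene symbol, and each symbol matched 1 of the 60619 gene rows of the deposited tables. Of the 10 genes, 9 were among the 13304 genes above the filter on low counts (10 or more counts in 1 library and a mean level of 1 CPM or more, CPM being counts scaled to library size). TET1 was the member below it.

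RNA was sequenced from HBEC-3KT, a line of human bronchial epithelial cells immortalized with CDK4 and TERT. The CBS library came from cells given pLenti6-hCBS, a lentivirus that carries human cystathionine beta-synthase (CBS), and the empty-vector library from cells given pLenti6 alone. Both cultures had 4 to 8 hours of virus, blasticidin selection at 10 µg/mL and 4 to 5 days on gelatin-coated plates. The study asked how CBS expression bears on Polycomb repressive complex 2. With 1 library for each condition, how far separate cultures differ is not known, and the conditions could not be tested against each other. The 2 cultures are called CBS cells and vector cells.

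In mammalian cells, DNMT3A and DNMT3B set new methyl groups on CpG sites. DNMT1 copies them onto the new strand after replication, where UHRF1 recruits it by binding hemimethylated DNA, and HELLS opens nucleosomes for both. TET dioxygenases oxidize 5-methylcytosine, and TDG excises the oxidized bases for base excision repair. DNMTs take their methyl groups from S-adenosylmethionine, which is made in the methionine cycle, while CBS draws homocysteine out of that cycle. DNMT1, UHRF1 and HELLS are most abundant in dividing cells and are known targets of E2F factors.

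Promoter windows are shown for DNMT1, UHRF1 and HELLS, since these were the members whose window held an E2F-like motif, and for UHRF2, the paralog of UHRF1, as a contrast. The sequences are RefSeq's on GRCh38.p14, from 250 bases before to 50 after an annotated start, written 5′ to 3′ on the gene's strand. Capitals mark matches to TTTNNCGC on either strand. The windows are chr19:10194904-10195203 (minus strand) for DNMT1, chr19:4909251-4909550 (plus) for UHRF1, chr10:94545538-94545837 (plus) for HELLS and chr9:6412949-6413248 (plus) for UHRF2.
DNMT1: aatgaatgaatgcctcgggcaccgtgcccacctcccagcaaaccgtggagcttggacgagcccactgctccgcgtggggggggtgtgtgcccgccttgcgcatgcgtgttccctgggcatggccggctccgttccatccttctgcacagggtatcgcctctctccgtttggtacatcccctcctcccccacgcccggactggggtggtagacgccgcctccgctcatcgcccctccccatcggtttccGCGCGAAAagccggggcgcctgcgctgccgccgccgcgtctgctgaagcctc
UHRF1: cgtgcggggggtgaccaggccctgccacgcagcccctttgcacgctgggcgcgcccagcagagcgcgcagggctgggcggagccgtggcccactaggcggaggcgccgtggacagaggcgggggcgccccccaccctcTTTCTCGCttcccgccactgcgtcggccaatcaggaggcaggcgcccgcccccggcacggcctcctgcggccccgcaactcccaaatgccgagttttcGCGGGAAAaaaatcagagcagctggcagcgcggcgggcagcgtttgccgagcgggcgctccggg
HELLS: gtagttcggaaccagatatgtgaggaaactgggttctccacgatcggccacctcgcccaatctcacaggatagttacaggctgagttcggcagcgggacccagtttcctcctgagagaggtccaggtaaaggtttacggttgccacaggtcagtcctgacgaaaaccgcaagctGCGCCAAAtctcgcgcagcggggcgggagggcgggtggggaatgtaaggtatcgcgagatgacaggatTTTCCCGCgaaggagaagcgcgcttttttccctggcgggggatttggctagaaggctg
UHRF2: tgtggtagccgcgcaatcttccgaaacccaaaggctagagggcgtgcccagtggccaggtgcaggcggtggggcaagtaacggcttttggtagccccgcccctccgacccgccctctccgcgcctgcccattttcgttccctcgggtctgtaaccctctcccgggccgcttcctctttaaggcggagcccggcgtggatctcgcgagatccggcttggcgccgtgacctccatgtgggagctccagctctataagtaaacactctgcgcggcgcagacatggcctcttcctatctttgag
The match in DNMT1 began 2 bases before the start, and those in UHRF1 began 112 and 14 bases before it. In HELLS they began 76 and 8 bases before the start. UHRF1 has 3 annotated starts, and the window of the second also held a match. None of the 6 windows of DNMT3A, and none of DNMT3B, UHRF2, TDG or the TET genes, held these letters. All 10 members had a RefSeq window, and 3 of them held the motif in at least 1 window. It was present for 8.23% of all 27305 genes with a window, and for 13.1% of the 9370 of these that were above the filter. The CCAAT box, searched as CCAAT on either strand, was present for 6 of the 10 members and for 39.7% of all genes. A match is a run of letters, and binding was not measured.

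The libraries held 20785957 estimated counts (CBS cells) and 20433062 (vector cells). CBS itself had 3669 counts in CBS cells and 280 in vector cells, a 12.2-fold higher level (95% counting interval 10.8 to 13.9), as its label says. Its near-identical copy CBSL, with which CBS shares reads, was 11.9-fold higher (10.7 to 13.3). All 10 airway basal markers were above the filter, summing to 8313 CPM in CBS cells and 12634 in vector cells. Of their counting intervals, 2 lay above a ratio of 1, 6 below and 2 held it. Over all genes above the filter, 31.6% lay above and 31.1% below. KRT5 had the most counts of these markers, 54419 against 83759. TP63 and EGFR were close to even, at log2 folds of -0.04 and -0.03, and DST was at 0.10. The basal keratins KRT14 and KRT15 were lower in CBS cells, at log2 folds of -2.15 and -1.94. So was LAMB3, a laminin chain, at -1.31, while NGFR, a nerve growth factor receptor, was at 0.93. Markers of other cells were few, with 1 of 8 fibroblast markers, 2 of 10 immune, 1 of 6 endothelial and 2 of 6 ciliated markers above the filter. They summed to 6.24 against 13.8 CPM (fibroblast), 39.6 against 123.9 (immune), 4.27 against 0.803 (endothelial) and 5.67 against 3.06 (ciliated) in CBS cells and vector cells. PTPRC, which marks leukocytes, COL3A1 and DCN of fibroblasts, KDR of endothelium and FOXJ1 of ciliated cells had no count in either library. The endothelial sum rested mostly on CDH5, with 87 counts in CBS cells and 7 in vector cells. The ciliated sum rested mostly on DNAH5, with 94 against 26 counts. CCDC39, the other ciliated marker above the filter, had 23 against 22. The immune sum rested on CD68, a lysosomal protein that other cells also make, with 619 against 2259 counts. CD14 was at a log2 fold of 0.05, and COL1A1 at -1.10.

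Most of the maintenance genes were higher in CBS cells. DNMT1, UHRF1 and HELLS were 1.64-, 1.89- and 1.34-fold higher, whereas UHRF2 was lower. Folds are ratios of counts between the 2 libraries after TMM scaling, and each interval is an exact 95% interval for that ratio which covers counting error only. Log2 folds also carry a prior count of 5, which pulls low genes towards 0. In bulk RNA, fewer cells that express a gene and less RNA per cell cannot be told apart.

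DNMT1 (ENSG00000130816, GRCh38 chromosome 19, 10133345 to 10231286), the maintenance methyltransferase, had 4724 counts in CBS cells and 2696 in vector cells. Its level per transcript length was 74.4 TPM in CBS cells and 42.8 TPM in vector cells. The count ratio was 1.64 (1.56 to 1.72), a log2 fold of 0.71, and 4.34% of the genes above the filter had a log2 fold as high or higher. DNMT1 was the best counted of the 10 genes and had the narrowest interval on the log2 scale. S1PR2, which overlaps exons of DNMT1 on the same strand, had 60 against 86 counts, few beside those of DNMT1.

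UHRF1 (ENSG00000276043, chromosome 19, 4903080 to 4962154) reads hemimethylated CpG sites and ubiquitinates histone H3 to bring in DNMT1. It had 2395 counts and 43.0 TPM in CBS cells, and 1184 counts and 21.0 TPM in vector cells. Its ratio of 1.89 (1.76 to 2.03) was the highest among the 9 members above the filter, just under 2-fold, and 1.97% of genes had a log2 fold of 0.92 or more. UHRF2 (chromosome 9, 6413151 to 6507054), which shares its domains and binds 5-hydroxymethylcytosine but does not replace UHRF1 in maintenance, went the other way. It had 645 counts and 14.1 TPM in CBS cells, and 860 counts and 21.7 TPM in vector cells, a ratio of 0.701 (0.632 to 0.777). UHRF1 was at 3.04 times the TPM of UHRF2 in CBS cells and at 0.969 times in vector cells, where the paralogs were nearly equal. In counts, the ratio of UHRF1 to UHRF2 was 2.70 times as large in CBS cells (exact conditional interval 2.38 to 3.06). Such a ratio between genes of the same library needs no scaling between libraries.

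HELLS (chromosome 10, 94501434 to 94613905), a chromatin remodeller of the SNF2 family, had 1092 counts and 21.9 TPM in CBS cells. It had 760 counts and 14.7 TPM in vector cells. The ratio was 1.34 (1.22 to 1.47), smaller than that of DNMT1, and the ratio of DNMT1 to HELLS was 1.22 times as large in CBS cells (1.10 to 1.35). With the trend of folds on transcript GC content and length removed, the log2 fold of HELLS, whose transcript has 37.6% GC, was 0.31 in place of 0.42. Together, DNMT1, UHRF1 and HELLS had 8211 counts in CBS cells and 4640 in vector cells, a ratio of 1.65 (1.59 to 1.71).

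**Figure D1:**
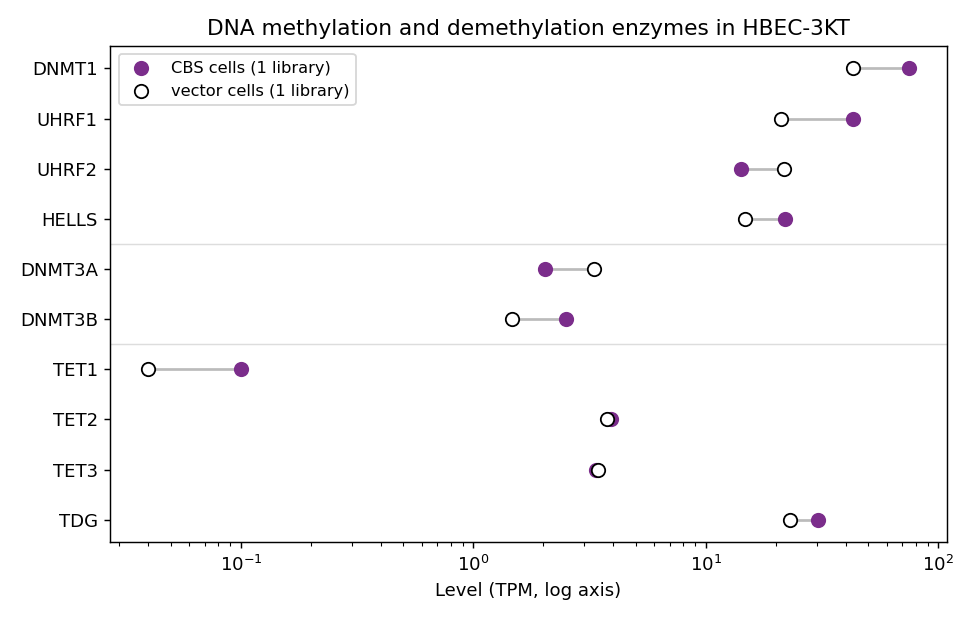
Level of each of the 10 enzymes in TPM (log axis) in CBS cells (filled) and vector cells (open), 1 library each, grouped from the top into maintenance, de novo and demethylation genes. DNMT1, UHRF1 and HELLS lie to the right in CBS cells, UHRF2 and DNMT3A to the left, and the TET2 and TET3 points nearly coincide.

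The 2 de novo methyltransferases differed in opposite directions, DNMT3A being lower in CBS cells and DNMT3B higher. DNMT3A (ENSG00000119772, chromosome 2, 25227855 to 25342590) had 137 counts in CBS cells and 278 in vector cells, a ratio of 0.460 (0.372 to 0.567). DNMT3B (ENSG00000088305, chromosome 20, 32762385 to 32809356) had 150 counts in CBS cells and 87 in vector cells, a ratio of 1.61 (1.23 to 2.12). DNMT3A was the only member past 2-fold with an interval that excluded a ratio of 1, and 4.38% of genes had a log2 fold of -1.09 or lower.

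In TPM the order of the pair was reversed between the libraries. DNMT3A stood at 2.03 TPM and DNMT3B at 2.49 TPM in CBS cells, against 3.31 and 1.46 TPM in vector cells. The count ratio of DNMT3B to DNMT3A was 1.09 in CBS cells and 0.313 in vector cells, 3.50 times as large in CBS cells (2.47 to 4.96). Both levels were low, and on the log2 scale their intervals were the widest of the members above the filter. Their sum of 287 against 365 counts had a ratio of 0.735 (0.627 to 0.860), while the summed TPM differed less, at 4.52 in CBS cells and 4.77 in vector cells. DNMT1 made up 94.3% of the summed TPM of the 3 methyltransferases in CBS cells and 89.96% in vector cells. DNMT3A made up 2.57% and 6.96%, and DNMT3B 3.15% and 3.07%, in CBS cells and vector cells. DNMT3L, a catalytically inactive partner of the de novo enzymes named after its values were seen, had no count in either library.

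The size of the DNMT3A difference depended on the measure. Its TPM ratio was 0.613, while its count ratio was 0.460. The TPM ratio was thus short of 2-fold. As log2(TPM + 1) its log2 fold was -0.51, since the added 1 pulls a gene at 2.03 and 3.31 TPM further towards 0. Across 12411 genes with at least 1 TPM in both libraries, the log2 TPM ratio lay a median of 0.12 above the log2 count ratio, a shift common to all genes. TPM divides a gene's reads by the length of its transcripts, so counts per unit of TPM follow the mean transcript length used for the gene. Relative to the median gene, that length was 0.815 times as large for DNMT3A in CBS cells as in vector cells. For UHRF2 it was 1.17 times as large and for TDG 1.09 times. The other 6 members above the filter lay between 0.976 and 1.03. A shift as far from the median as that of DNMT3A was seen for 7.31% of genes. One as far as that of UHRF2 was seen for 11.9%, and one as far as that of TDG for 26.5%. GENCODE 29 lists 15 transcripts of DNMT3A, from 472 to 9501 bases. The tables give no counts per transcript, so which transcripts differed was not measured, and no error can be put on these length ratios.

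**Figure D2:**
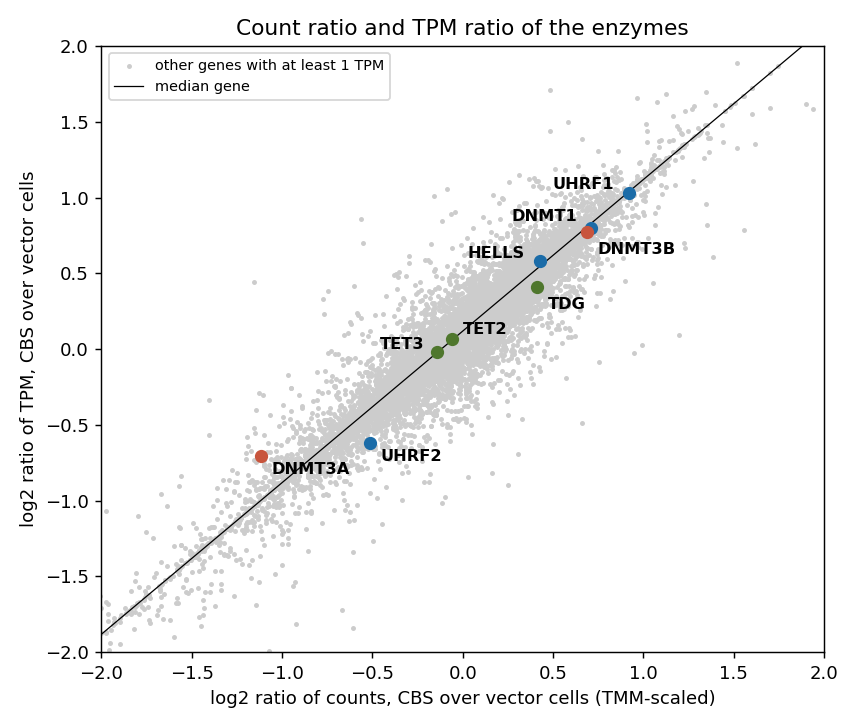
Log2 ratio of TPM against log2 ratio of counts, CBS over vector cells, for the 9 enzymes above the filter (coloured by role as maintenance in blue, de novo in red and demethylation in green) and other genes with at least 1 TPM in both libraries (grey; genes beyond 2 log2 units are outside the axes). DNMT3A lies above the line of the median gene and UHRF2 and TDG below it, while the other 6 lie close to it.

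Among the demethylation genes, TET2 and TET3 were close to even between the libraries, TDG was higher in CBS cells and TET1 was barely detected. TET2 (chromosome 4, 105145875 to 105279816) had 548 counts and 3.91 TPM in CBS cells, and 534 counts and 3.74 TPM in vector cells, a ratio of 0.959 (0.849 to 1.08). TET3 (chromosome 2, 73986404 to 74108176) had 557 counts and 3.38 TPM in CBS cells, and 574 counts and 3.43 TPM in vector cells, a ratio of 0.907 (0.805 to 1.02). Neither dioxygenase differed beyond counting error, and the sign of TET2 changed with the scaling and the measure. Its log2 fold was -0.06 in TMM-scaled counts, 0.01 in counts scaled by plain library totals and 0.05 as log2(TPM + 1). Together the intervals of TET2 and TET3 reached no lower than 0.805 and no higher than 1.08, as far as counting error goes. The count ratio of TET2 to TET3 was 0.984 in CBS cells and 0.930 in vector cells.

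TET1 (chromosome 10, 68560656 to 68694482) had 13 counts in CBS cells and 5 in vector cells, or 0.10 and 0.04 TPM. Its ratio of 2.43 had an interval from 0.813 to 8.70, so no difference was detectable at this depth. TDG (chromosome 12, 103965804 to 103988874), the glycosylase, was the most abundant of this group, with 1195 counts and 30.4 TPM in CBS cells and 840 counts and 22.9 TPM in vector cells. The TDG ratio of 1.33 (1.22 to 1.45) was close to that of HELLS, and its log2 fold of 0.41 was 0.27 with the GC and length trend removed. Reads of TDG can be shared with pseudogenes, and TDGP1, the copy named after it in GENCODE 29, had 3 counts against 0. Copies under other names were not looked for, and how many reads were shared was not measured. Summed over the 3 TET genes there were 1118 counts in CBS cells and 1113 in vector cells. The count ratio of DNMT1 to TET2 was 8.62 in CBS cells and 5.05 in vector cells, 1.71 times as large in CBS cells (1.499 to 1.95).

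In TPM, which allows levels of different genes to be compared, the members ran from DNMT1 through UHRF1, TDG, HELLS, UHRF2, TET2, TET3, DNMT3B and DNMT3A to TET1 in CBS cells. In vector cells the order was DNMT1, TDG, UHRF2, UHRF1, HELLS, TET2, TET3, DNMT3A, DNMT3B and TET1. DNMT1 was highest and TET1 lowest in both libraries. TDG, UHRF2 and UHRF1 lay within 21.0 to 22.9 TPM in vector cells. With 1 library each, no spread over samples can be set beside this order.

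Taking the members together, 0 of the 9 that passed the filter reached 2-fold higher with an interval excluding a ratio of 1, against 1.41% of all 13304 genes. DNMT3A alone was at least 2-fold lower, against 5.28% of all genes. With the interval alone, 5 of 9 lay above a ratio of 1 (DNMT1, UHRF1, HELLS, DNMT3B and TDG), against 31.6% of all genes. Another 2 lay below it (UHRF2 and DNMT3A), against 31.1% of all genes, and 2 held it (TET2 and TET3). The median log2 fold of the 9 was 0.41, and that of all genes above the filter was 0.00. By role, it was 0.57 over the 4 maintenance genes, -0.22 over the 2 de novo genes, whose values lay on both sides of 0, and -0.06 over the 3 demethylation genes above the filter.

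**Figure D3:**
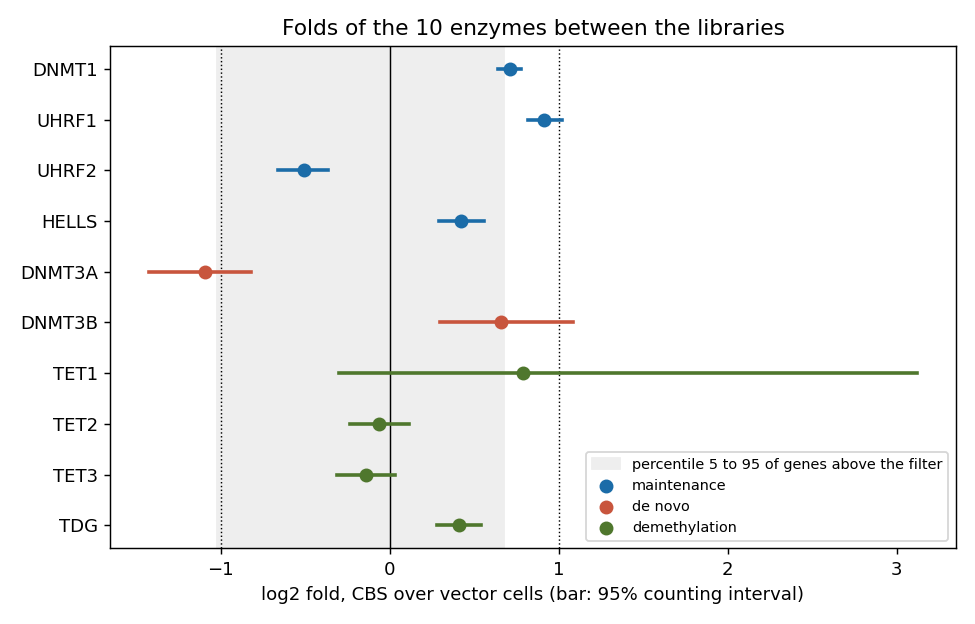
Log2 fold of the 10 enzymes, CBS over vector cells, with 95% counting intervals (1 library each), coloured by role, dotted lines at 2-fold and percentiles 5 to 95 of all genes above the filter in grey. DNMT1 and UHRF1 lie above the grey band and DNMT3A just below it, while the interval of TET1 spans a wide range from its few counts.

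Most DNA methylation cofactors were also higher in CBS cells. Their list is not limited to partners of the maintenance genes, and holds TRIM28 and SETDB1 among others. Of 16 cofactors above the filter, 14 had an interval above a ratio of 1, 0 below, and 2 held it. Over all genes above the filter, 31.6% had an interval above and 31.1% below. A well-counted gene has a narrow interval, so such tallies depend on counts as well as on folds. MTA2, with 4272 against 3674 counts, had an interval above a ratio of 1 at a log2 fold of 0.12. The median log2 fold of the cofactors was 0.38. CDCA7, which recruits HELLS to chromatin, had 1553 counts in CBS cells and 620 in vector cells, a log2 fold of 1.22 (1.09 to 1.36). ZBTB24, a zinc finger activator of CDCA7, had 449 against 200 counts, and its log2 fold was 1.05 (0.82 to 1.32). These were the 2 cofactors past 2-fold. Next came CDCA7L, a paralog of CDCA7, at 0.71 (0.59 to 0.85) and PCNA, the replication clamp that binds DNMT1, at 0.64 (0.58 to 0.70), with 5998 against 3597 counts. ZBTB24, CDCA7, HELLS and DNMT3B are the genes mutated in human ICF syndrome, in which pericentromeric repeats lose methylation. Set side by side after their values were seen, these genes were all higher in CBS cells, at log2 folds of 1.05, 1.22, 0.42 and 0.66, each with an interval above a ratio of 1.

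DNA replication genes differed in the same direction as DNMT1, UHRF1 and HELLS. Of the 34 genes of the S phase list, all above the filter, 33 had an interval above a ratio of 1 and 0 below. The shares over all genes above the filter were 31.6% above and 31.1% below. Log2 folds of the S phase genes ran from 0.02 to 1.07, with a median of 0.67. Among them were CCNE2, a cyclin of S phase entry, at 1.07 (0.76 to 1.46), GINS1, a subunit of the replicative helicase, at 0.97 (0.82 to 1.13), and MCM2 and MCM6 of the same helicase, both at 0.96. PCNA is on this list too. The 20 genes of the G2/M list had a median of 0.22, with 15 intervals above a ratio of 1 and 0 below, among them the kinesin KIF11 at 0.51, the checkpoint kinase BUB1B at 0.49, CDC20, an activator of the anaphase-promoting complex, at 0.28 and the kinesin KIF20A at 0.27. The count ratio of UHRF1 to MCM2 was 0.649 in CBS cells and 0.670 in vector cells, a ratio of ratios of 0.968 whose interval held 1 (0.884 to 1.06). That of DNMT1 to PCNA was 0.788 and 0.750, and its ratio of ratios of 1.05 also held 1 (0.986 to 1.12). The other pairings excluded 1. UHRF1 differed more than PCNA, with count ratios of 0.399 in CBS cells and 0.329 in vector cells and a ratio of ratios of 1.21 (1.12 to 1.32). DNMT1 differed less than MCM2, with a ratio of ratios of 0.839 (0.778 to 0.903). The share of cells in S phase was not measured, and its part in the higher DNMT1, UHRF1 and HELLS levels was not tested. The E2F-like motif TTTNNCGC was present for 16 of the 29 genes of the S phase list that matched a RefSeq window by symbol. It was present for 13.1% of the genes above the filter with a window. Whether the motif bears on any of these levels was not tested.

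**Figure D4:**
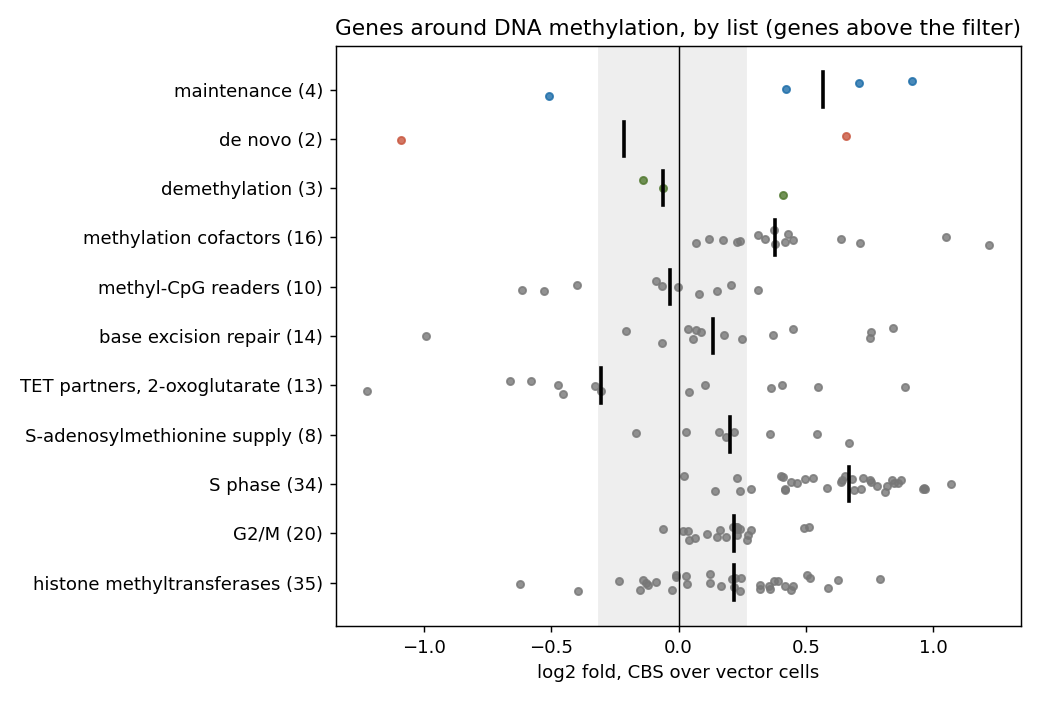
Log2 fold, CBS over vector cells, of each gene above the filter in 11 gene lists (points, number of genes in brackets), with the median of each list (black bar) and the interquartile range of all genes above the filter (grey). The S phase points lie to the right of 0, as do DNMT1, UHRF1 and HELLS in the maintenance row, and the methyl-CpG readers are spread about 0.

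Readers and repair factors around the members showed less of a common direction. The 10 genes of the methyl-CpG reader list, all above the filter, had a median of -0.03. Of their intervals, 3 lay above a ratio of 1, 3 below and 4 held it. That is close to the shares over all genes above the filter, 31.6% above and 31.1% below. Lower in CBS cells were MBD6 at -0.61 (-0.70 to -0.53), a relative with an MBD domain, the repressor MBD1 at -0.53 (-0.62 to -0.44) and ZBTB4, a zinc finger reader, at -0.40 (-0.48 to -0.32). MBD3, a subunit of the NuRD complex, was at 0.31 (0.23 to 0.39). The 14 genes of the base excision repair list, which includes glycosylases other than TDG, had a median of 0.13. Of their intervals, 5 lay above a ratio of 1, 2 below and 7 held it. PARP1, a sensor of DNA breaks, was at 0.84 (0.77 to 0.92), the ligase LIG3 at 0.76 (0.58 to 0.95) and the uracil glycosylase UNG, also on the S phase list, at 0.75 (0.61 to 0.91). The glycosylase NEIL1 had 54 counts in CBS cells and 105 in vector cells, a log2 fold of -0.99 (-1.56 to -0.57).

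Of 13 genes above the filter that partner TET enzymes, handle 2-oxoglutarate or act on cytosine and nucleotides, 4 had an interval above a ratio of 1, 7 below and 2 that held it. Their median log2 fold was -0.30 in counts and -0.00 as log2(TPM + 1). For each list in this paragraph, the shares over all genes above the filter were 31.6% above and 31.1% below. GADD45B, a stress protein linked to active demethylation, had 135 against 301 counts, and its log2 fold was -1.22 (-1.56 to -0.96). IDH2, the mitochondrial isocitrate dehydrogenase that makes 2-oxoglutarate, was at -0.66 (-0.91 to -0.44), with 253 against 377 counts. IDH1, the other isocitrate dehydrogenase on the list, went the other way. It was at 0.41 (0.32 to 0.50), with 2496 against 1758 counts. APOBEC3B, a cytidine deaminase, was at -0.58 (-0.73 to -0.44). SAMHD1, a dNTP hydrolase, was at 0.89 (0.76 to 1.03). The 8 genes above the filter for S-adenosylmethionine supply had a median of 0.20, with 6 intervals above, 1 below and 1 that held a ratio of 1. MAT2A, which makes S-adenosylmethionine outside the liver, had 8426 against 4950 counts, and its log2 fold was 0.67 (0.62 to 0.72). Next were MTRR, which reactivates methionine synthase, at 0.54 (0.39 to 0.70), the adenosine kinase ADK at 0.36 (0.24 to 0.48) and methionine synthase, MTR, at 0.22 (0.05 to 0.39). The 35 histone and arginine methyltransferases, which draw on the same donor, had a median of 0.22, with 20 intervals above, 7 below and 8 holding a ratio of 1. Among these were PRMT3 at 0.79, PRMT6 at 0.62 and PRMT9 at 0.59, all arginine methyltransferases, and SUV420H2, a histone H4 methyltransferase, at -0.62.

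Transcripts of germline genes, which DNA methylation keeps silent in somatic cells, and of imprinted genes were also read. All 44 germline genes, such as the MAGEA family, DAZL and the piRNA factors, failed the filter, and 35 of them had no count at all. They summed to 16 counts in CBS cells and 21 in vector cells, and no gene exceeded 5 counts in CBS cells or 7 in vector cells. A count of 0 allows up to 3 counts, so a germline gene held at under that level would not have been seen. Of 26 imprinted genes, 14 were above the filter, with a median of -0.25. Of their intervals, 4 lay above a ratio of 1, 7 below and 3 held it. The shares over all genes above the filter were 31.6% above and 31.1% below. IGF2, a growth factor whose reads can be shared with the INS-IGF2 readthrough, had 51 against 199 counts, and its log2 fold was -1.96 (-2.54 to -1.61). GRB10, an adaptor of growth factor receptors, was at -0.75 (-0.93 to -0.58). Higher in CBS cells were PEG10, a gene derived from a retrotransposon, at 0.83 (0.74 to 0.91) with 3397 against 1789 counts, and NAP1L5, a nucleosome assembly relative, at 1.27 (0.87 to 1.86) with 134 against 49. DNA methylation, hydroxymethylation and enzyme activity were not measured, and transcript levels cannot stand in for them.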

How the data were processed

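Per the submitters' processing notes, Trimmomatic 0.39, STAR 2.6.1d, RSEM 1.3.2 and GRCh38 were used, with no roles given. Read layout, strandedness and gene annotation are not given in the sources used here. Gene-level expected counts were deposited by the authors. Values with decimals, found for 15.5% (CBS cells) and 15.7% (vector cells) of genes, were rounded. The authors also deposited TPM values, which were used to compare levels between genes and, as log2(TPM + 1), as an alternative. Symbols turned into dates by a spreadsheet, 27 in all, were replaced by gene ID.

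TMM factors (1.03 for CBS cells, 0.975 for vector cells) came from edgeR 4.0.16 (R 4.3.3), without any fitted model, and DESeq2 1.42.0 size factors were an alternative. A prior count of 5, scaled by depth, enters each log2 fold. Intervals are exact 95% conditional binomial (Clopper-Pearson) for a ratio between libraries, and exact conditional for the odds ratio of gene pairs, of which 12 were computed. Both cover counting error only, since each group held 1 library. PCR-amplified reads are not independent molecules, so the counting error itself may be larger than these intervals show. The longest GENCODE 29 transcript gave GC content and length, found for 99.4% of the genes above the filter, and their trend was removed by lowess (span 0.3, statsmodels 0.14.6). The calculation was tested on simulated counts.

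Groups came from the genotype labels. The members and the gene lists were chosen with earlier results of these data known. Named genes are the members, CBS, CBSL and up to 4 genes per list with at least 100 counts in 1 library. The list genes were taken by absolute log2 fold from the largest down. Genes named outside this rule include the cell markers with no count, DAZL, KRT5, TP63, EGFR, DST, CDH5, DNAH5, CCDC39, MTA2 and IDH1. Scripts ran in Python 3.11.15 with scipy 1.17.1, numpy 2.4.6, pandas 2.3.3 and matplotlib 3.10.9.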

Additional observations from a re-analysis of the deposited data

How the results depend on the processing

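The other settings were DESeq2 size factors, plain library totals, log2(TPM + 1), prior counts of 1 and 20, no filter, a filter of 100 counts, and folds corrected for GC content and length by lowess. The median log2 fold of the members, 0.41, was 0.27 with that correction. DNMT3A was the 1 member at least 2-fold lower, and the count was 0 as log2(TPM + 1), where its log2 fold was -0.51, and 0 at a fold threshold of 4. At a threshold of 1.5, 3 members were higher in place of 0. Over the 8 settings and the reported fit, the log2 fold of DNMT1 lay between 0.71 and 0.80, that of UHRF1 between 0.91 and 0.996, that of UHRF2 between -0.60 and -0.44 and that of DNMT3B between 0.50 and 0.73. TET2, between -0.13 and 0.05, was the member that changed sign. Depth limits TET1 most, with 13 and 5 counts. No paired analysis was possible because each group held 1 library.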
